A study of Mus musculus with 5 samples.

Results

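The erythroid program genes described here are Gata1, Klf1, Epor, Zfpm1, Nfe2, Alas2, Slc4a1, Ank1 and Tfrc. They were chosen by symbol, as genes known for their part in making red blood cells. Earlier results of these data were known when these genes and the gene lists below were chosen. All 9 were found by Entrez identifier among the 27179 genes of the count tables. The mark was acetylation of lysine 14 of histone H3 (H3K14ac), mapped by CUT&Tag. In this method an antibody (here abcam, ab52946) brings the Tn5 transposase to marked chromatin, and the DNA there is cut and tagged for sequencing. The cells were LSK cells, the lineage-negative, Sca-1-positive, Kit-positive fraction of bone marrow, which contains the stem cells and earliest progenitors of blood. They were isolated by flow sorting, and all mice were male and of the C57BL/6 strain. The 2 control libraries had the genotype Hbo1def/+; T/+ and the 2 knockout libraries Hbo1def/def; T/+, so the controls were heterozygous and not wild type. Hbo1, also called Kat7, encodes a histone acetyltransferase of H3K14. In both groups poly(I:C) was given to switch on Mx1-cre, a recombinase gene driven by an interferon-responsive promoter that is also active outside blood cells, so controls and knockouts shared the interferon stimulus. The sources used here do not give the meaning of T/+, the time after poly(I:C) or the ages. The remaining library, of HBO1 itself in control cells, was not analysed here.

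Red cells arise from stem cells through megakaryocyte and erythroid progenitors. Gata1 encodes the zinc finger factor that switches on most red cell genes, Zfpm1 encodes its cofactor FOG-1, Klf1 encodes a factor that binds CACCC elements of globin and other red cell promoters, and Nfe2 encodes the large subunit of the NF-E2 factor, which also acts in platelet formation. Epor encodes the receptor for erythropoietin, the hormone that keeps erythroid precursors alive, and Tfrc encodes the transferrin receptor, which takes up iron. Alas2 encodes the red cell form of the first enzyme of heme synthesis. Slc4a1 encodes band 3, the anion exchanger of the red cell membrane, and Ank1 encodes ankyrin, which ties band 3 to the membrane skeleton. LSK cells lie upstream of this program, and H3K14ac is a mark found at active and poised genes.

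Counts were compared over 3 regions of each gene: the 5 kb before the start site (upstream), the gene body, and the 5 kb after the gene end (downstream). Promoter sequence was matched for 6 of the 9 genes in a RefSeq table of GRCm38.p6. The 250 bases before the start site, which are the last part of the upstream region, are printed below for 4 of them, because these 4 set a pair of genes whose bodies gained the mark (Klf1 and Tfrc) beside a pair that did not pass the test in any region (Gata1 and Alas2). The stretches are chr8:84901732-84901981 on the plus strand (Klf1), chr16:32608646-32608895 on the plus strand (Tfrc), chrX:7967911-7968160 on the minus strand (Gata1) and chrX:150547167-150547416 on the plus strand (Alas2), each written 5′ to 3′ on the strand of the gene. Capitals mark matches on either strand to a GATA motif (AGATAA, where the first base may also be T and the last may also be G) or to a KLF motif (CCNCNCCC), and overlapping matches run together.
Klf1: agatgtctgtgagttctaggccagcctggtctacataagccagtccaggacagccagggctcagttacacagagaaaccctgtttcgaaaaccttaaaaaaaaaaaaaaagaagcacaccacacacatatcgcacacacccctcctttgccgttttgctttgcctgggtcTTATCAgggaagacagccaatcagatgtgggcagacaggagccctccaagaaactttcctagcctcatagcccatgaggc
Tfrc: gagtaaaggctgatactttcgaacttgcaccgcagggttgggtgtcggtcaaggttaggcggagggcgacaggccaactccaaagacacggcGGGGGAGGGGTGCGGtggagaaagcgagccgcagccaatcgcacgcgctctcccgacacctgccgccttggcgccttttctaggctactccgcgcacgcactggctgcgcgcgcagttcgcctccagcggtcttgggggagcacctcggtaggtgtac
Gata1: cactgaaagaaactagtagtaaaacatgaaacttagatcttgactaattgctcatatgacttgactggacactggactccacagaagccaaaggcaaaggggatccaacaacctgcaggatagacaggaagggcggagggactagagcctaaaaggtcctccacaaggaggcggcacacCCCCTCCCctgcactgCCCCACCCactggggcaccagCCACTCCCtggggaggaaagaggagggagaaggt
Alas2: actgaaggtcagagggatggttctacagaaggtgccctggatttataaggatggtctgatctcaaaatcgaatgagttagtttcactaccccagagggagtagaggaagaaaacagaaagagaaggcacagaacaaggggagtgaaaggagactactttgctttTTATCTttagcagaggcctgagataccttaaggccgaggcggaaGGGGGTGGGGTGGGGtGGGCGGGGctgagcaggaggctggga
The Klf1 stretch held 1 GATA match and 0 KLF matches, Tfrc held 0 and 3, Gata1 0 and 3, and Alas2 1 and 4. Of the 32841 promoters in the table, 26.5% held a GATA match and 45.9% a KLF match. None of these 4 stretches, nor those of Epor and Zfpm1, matched the NF-E2 motif TGANTCA, which 6.75% of all promoters held. The Tfrc stretch had 25 CG dinucleotides, against 3 for Klf1, 2 for Gata1 and 4 for Alas2, and a median of 6 over all promoters. A match is a description of the letters and not evidence of binding.

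Gene body counts per library ranged from 4723549 to 12386891, and upstream counts from 869859 to 1164409, with the knockout libraries the shallower. Upstream counts made up 7.86% and 8.43% of a control library, and 16.5% and 11.4% of knockout replicates 1 and 2. Kat7 itself had 311 and 304 gene body counts in controls and 477 and 262 in knockouts, and counts of a histone mark over a whole gene do not check its deletion. Whether the replicates of a group are separate animals is not stated in the labels, and the p-values therefore speak only of the spread among these libraries, part or all of which may be technical. With no spike-in named, every fold below is relative to TMM scaling within a region class, and fewer marked cells and less mark per cell cannot be told apart. When libraries were scaled on olfactory and vomeronasal receptor genes instead, the median over all genes shifted by 0.92 log2 units upstream, 0.65 over gene bodies and 0.30 downstream. Levels of different genes and regions are compared only as density, the CPM per kb, with the library size taken over all 3 region classes. The CPM values below are scaled by TMM within a region class and are compared only between libraries.

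In the Hbo1 knockouts, H3K14ac was higher over the bodies of Klf1, Nfe2 and Tfrc and upstream of Nfe2, and was lower over the body of Ank1 and upstream of it. Upstream, 2 of 9 genes passed the test (1 higher, 1 lower), or 22.2%, against a background of 38.3% of the 23200 genes tested (edgeR quasi-likelihood F-test, Benjamini-Hochberg adjusted p under 0.05). Over gene bodies, 4 of 9 passed (3 higher, 1 lower), or 44.4%, against 38.3% of 21393. Downstream, 1 of the 7 tested passed (higher), or 14.3%, against 13.1% of 21566. The share of the 9 genes past the test was thus near the share of all genes over gene bodies and downstream, and below it upstream. The background split into 24% higher and 14.3% lower upstream, 23.1% and 15.2% over gene bodies, and 10.8% and 2.29% downstream. The median log2 fold of the 9 genes was -0.18 upstream (all genes -0.09) and 0.33 over gene bodies (all genes 0.02), and that of the 7 tested downstream was -0.20 (all genes -0.03). The knockout libraries lay on one side of both controls at 6 of 9 genes upstream, where 77.8% of all genes did so, at 7 of 9 gene bodies (80.0%) and at 6 of 7 downstream regions (62.6%).

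**Figure D1:**
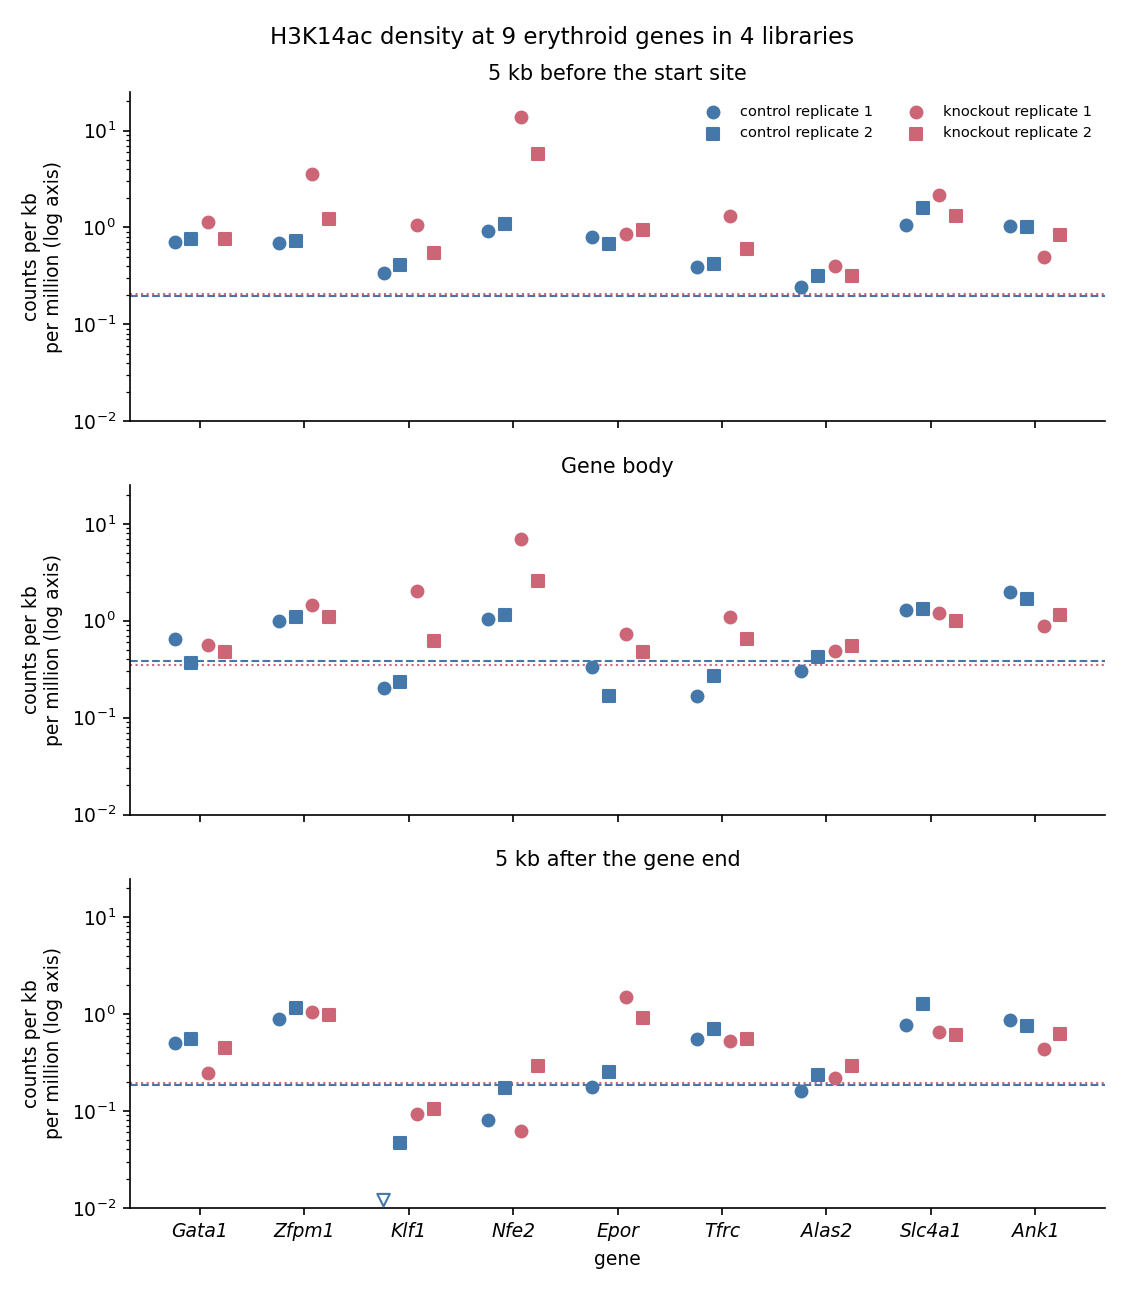
H3K14ac density (CPM per kb, log axis) of the 9 genes in each of the 4 libraries, upstream (top), over the gene body (middle) and downstream (bottom). Circles are replicate 1 and squares replicate 2, blue for controls and red for knockouts; the dashed blue and dotted red lines are the receptor gene medians in controls and knockouts, and the open triangle is a count of 0. Nfe2 rose from 0.918 and 1.09 upstream in controls to 13.9 and 5.74 in knockouts, and Klf1 lay under the receptor line over its body in controls and above it in knockouts.

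Among the transcription factors, Nfe2 carried the largest upstream log2 fold of the 9 genes. Nfe2 (Entrez 18022, GRCm38.p6 chromosome 15, 103248212 to 103255439, minus strand) had upstream levels of 59.0 and 58.0 CPM in controls and 511 and 243 CPM in knockout replicates 1 and 2. Both knockouts lay far above both controls, which were nearly equal. The log2 fold was 2.69 ± 0.83 (SE, n = 2 each), with an edgeR adjusted p of 0.00672. On the density scale the upstream region of Nfe2 moved from percentile 81.9 among all genes in controls to 99.8 in knockouts. Over the Nfe2 body the values were 11 and 10.4 CPM in controls and 59.9 and 21.0 CPM in knockouts, with no overlap. The body log2 fold was 1.92 ± 0.38, with an edgeR adjusted p of 5.2e-05. Downstream, Nfe2 had 6 and 11 counts in controls and 2 and 11 in knockouts and was too low to test. The body call of Nfe2 was lost without knockout replicate 1 (1.01, edgeR adjusted p = 0.0534; range over alternatives 4.8e-13 to 0.0534). The upstream call of Nfe2 was lost on leaving out control replicate 1 (2.70), control replicate 2 (2.67) or knockout replicate 1 (2.09), with receptor scaling (3.76) and with the replicate block (2.59); its edgeR, DESeq2 or limma adjusted p ranged from 8.78e-06 to 0.551 over alternatives.

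Klf1 changed over its body and not detectably upstream. Klf1 (Entrez 16596, chromosome 8, 84901982 to 84905291, plus strand) is the shortest of the 9 genes, and its body had 10 and 10 counts in controls and 44 and 16 in knockouts. As CPM these were 0.988 and 0.990 in controls and 8.14 and 2.39 in knockouts, with knockout replicate 1 over 3 times as high as replicate 2 (3.41-fold). The log2 fold was 2.37 ± 0.60, with an edgeR adjusted p of 0.00154. Control density over the Klf1 body, 0.2 and 0.232, was below the control median of the odorant and pheromone receptor genes, 0.385. The knockout densities of 2.02 and 0.622 were above the knockout receptor median of 0.353. Upstream, Klf1 had 21.7 and 21.5 CPM in controls and 38.6 and 23.3 CPM in knockouts, a log2 fold of 0.51 ± 0.48 that did not pass (edgeR adjusted p = 0.387). Its downstream counts were 0 and 3 in controls and 3 and 4 in knockouts, too few to test, and that window holds the start site of Dnase2a. The body call of Klf1 rests on few reads: it was lost on leaving out control replicate 1 (2.36), control replicate 2 (2.37) or knockout replicate 1 (1.29), and its adjusted p ranged from 1.09e-06 to 0.185 over the alternatives.

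Zfpm1, which encodes the GATA1 cofactor FOG-1, had upstream values of 44.3 and 38.1 CPM in controls and 131 and 52.1 CPM in knockouts (Entrez 22761, chromosome 8, 122281856 to 122337260, plus strand). Both knockouts lay above both controls, but replicate 1 was 2.51-fold above replicate 2. The log2 fold of 1.15 ± 0.51 did not pass the test (edgeR adjusted p = 0.0588). It did pass with DESeq2 size factors (1.25), pooled totals (1.76), receptor scaling (2.24), a mean count of at least 50 (1.46) and the crossed block (1.04). It shrank to 0.38 without knockout replicate 1 and to 0.45 with a GC correction, and did not pass with either, with an adjusted p between 0.00761 and 0.517 over all alternatives. Over the Zfpm1 body the values overlapped, at 80.4 and 75.4 CPM in controls and 96.9 and 68.3 CPM in knockouts (log2 fold 0.08 ± 0.29, edgeR adjusted p = 0.835). This body value turned to -0.91 with a GC correction (edgeR adjusted p = 0.0096; range over alternatives 0.0096 to 0.971). Downstream, Zfpm1 had a log2 fold of 0.03 ± 0.34 (edgeR adjusted p = 0.964).

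Gata1, the master factor of the lineage, did not pass the test in any region (Entrez 14460, chromosome X, 7959260 to 7967910, minus strand). Upstream it had 46.0 and 40.6 CPM in controls and 42.1 and 32.1 CPM in knockouts, and the groups overlapped. Its log2 folds were -0.22 ± 0.45 upstream, -0.23 ± 0.51 over the body and -0.58 ± 0.45 downstream (edgeR adjusted p = 0.705, 0.734 and 0.421). Body counts of Gata1 were 83 and 40 in controls, a wider gap than between the knockouts (31 and 31). The Gata1 body overlaps the predicted genes Gm39488 and Gm52419 on the other strand, and the sources used here do not say how reads shared between genes were assigned. Gata1 lies on the X chromosome, as does Alas2, and all mice were male, so each was present in 1 copy per cell.

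Tfrc passed the test over its body and Epor in the window after its end, and neither the windows nor the 2 genes were tested against each other. Tfrc, the transferrin receptor (Entrez 22042, chromosome 16, 32608896 to 32632794, plus strand), had body levels of 5.83 and 8.21 CPM in controls and 30.9 and 17.4 CPM in knockouts. The groups were well apart, with the lower knockout well above the higher control. The log2 fold was 1.78 ± 0.41, with an edgeR adjusted p of 0.00054. Upstream, Tfrc had 25.2 and 22.4 CPM in controls and 47.7 and 25.5 CPM in knockouts, a log2 fold of 0.62 ± 0.47 that did not pass (edgeR adjusted p = 0.278). Downstream its log2 fold was -0.20 ± 0.38 (edgeR adjusted p = 0.764). The Tfrc body call held in 14 of 15 alternatives and was lost without control replicate 1 (1.54), with an adjusted p between 3.42e-07 and 0.128.

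Epor, the erythropoietin receptor (Entrez 13857, chromosome 9, 21958899 to 21963576, minus strand), passed the test in the window after its end. Downstream it had 13 and 16 counts in controls and 49 and 35 in knockouts, or 10.2 and 12.8 CPM against 91.4 and 46.2 CPM. The groups did not overlap, and the log2 fold was 2.55 ± 0.43 (edgeR adjusted p = 0.00107). It passed in all 14 alternatives in which it was tested (2.00 to 3.05, adjusted p 3.93e-10 to 0.0213). That window, chr9:21953899-21958898, also holds the whole of Swsap1, a gene on the opposite strand that encodes a partner in DNA repair. The start site of Gm45914 lies in it as well. The Swsap1 body had 10 and 11 counts in controls and 28 and 23 in knockouts (log2 fold 2.03 ± 0.59, edgeR adjusted p = 0.00496). The counts do not separate Epor's end from Swsap1. Over the Epor body the counts were 23 and 10 in controls and 22 and 17 in knockouts (2.27 and 0.990 against 4.07 and 2.53 CPM), a log2 fold of 1.00 ± 0.58 that did not pass (edgeR adjusted p = 0.157). Upstream, the values overlapped at 51.2 and 35.6 CPM in controls and 31.8 and 39.9 CPM in knockouts (log2 fold -0.27 ± 0.45, edgeR adjusted p = 0.637).

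**Figure D2:**
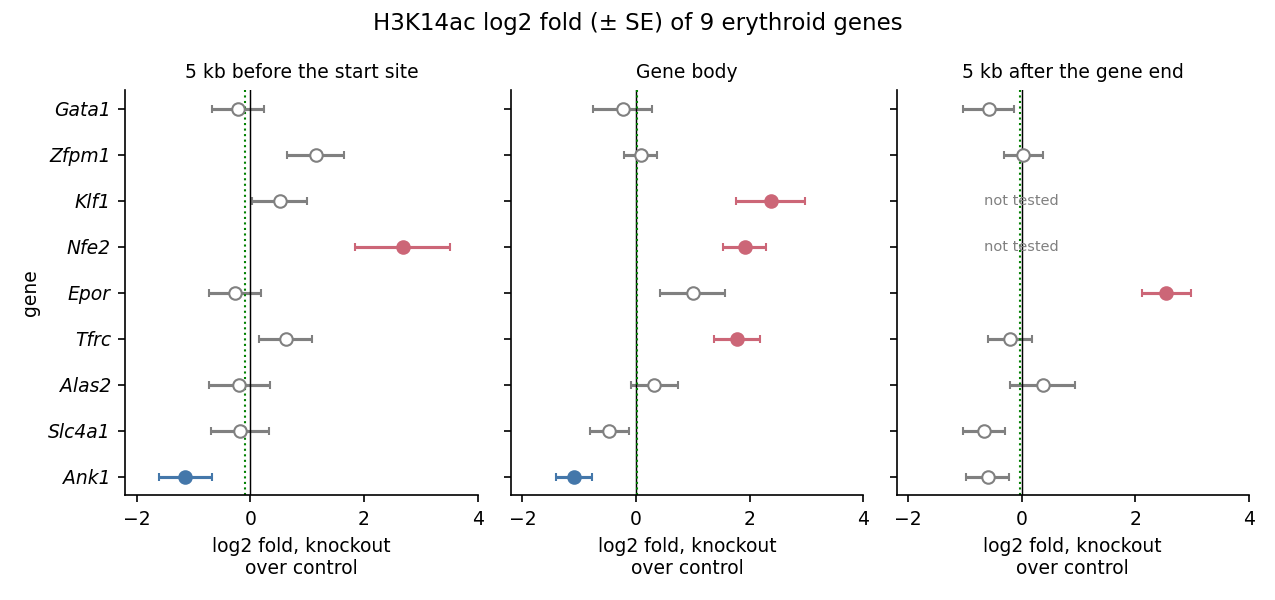
Log2 fold of H3K14ac counts, knockout over control, with SE bars, for the 9 genes in the 3 regions. Filled points passed the edgeR test (red higher, blue lower), open points did not, the green dotted line is the median of all genes, and the bodies of Klf1, Nfe2 and Tfrc lie to the right with log2 folds of 2.37, 1.92 and 1.78 while Ank1 lies to the left at -1.09.

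Among the genes of the mature red cell, Ank1 had less of the mark in knockouts with TMM scaling. Ank1 (Entrez 11733, chromosome 8, 22974836 to 23150497, plus strand) is the longest of the 9 genes, and its body had 5198 and 3777 counts in controls and 996 and 1551 in knockouts. As CPM these were 513 and 374 in controls and 184 and 231 in knockouts, with both knockouts below both controls. The log2 fold was -1.09 ± 0.32, with an edgeR adjusted p of 0.0055. Upstream, Ank1 had 66.0 and 53.0 CPM in controls and 18.2 and 35.5 CPM in knockouts, again with no overlap (log2 fold -1.14 ± 0.47, edgeR adjusted p = 0.0422). Downstream its log2 fold was -0.60 ± 0.37 (edgeR adjusted p = 0.309), in a window that holds the start site of Nkx6-3. The region inside the Ank1 body that lies before Mir486, a microRNA gene within Ank1, had 184 and 112 counts in controls and 20 and 54 in knockouts (log2 fold -1.61 ± 0.56, edgeR adjusted p = 0.0161). The region after Mir3107, at the same place on the other strand, had the same counts and did not pass (-1.08 ± 0.45, edgeR adjusted p = 0.123). The region before Mir3107 did not pass either (-1.24 ± 0.56, edgeR adjusted p = 0.0666). These stretches are part of the Ank1 body and add no separate test. Ank1 kept a negative log2 fold in all alternatives run, but its size depended on scaling: with receptor scaling it was -0.44 over the body and -0.26 upstream, and neither passed. The body call of Ank1 was also lost with the replicate block (-1.09) and without control replicate 1 (-0.86), control replicate 2 (-1.31) or knockout replicate 1 (-0.90). Upstream the call was lost in 10 of 14 alternatives, each library left out in turn among them (-1.55 to -0.70).

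Slc4a1 and Alas2 did not pass the test in any region. Slc4a1 (Entrez 20533, chromosome 11, 102348820 to 102365281, minus strand) had body levels of 31.2 and 27.3 CPM in controls and 23.7 and 18.6 CPM in knockouts. Both knockouts were lower, but the log2 fold of -0.47 ± 0.34 did not pass (edgeR adjusted p = 0.271). With a GC correction it was -1.05 and passed (edgeR adjusted p = 0.0113; range over alternatives 0.0113 to 0.837), as did its downstream value of -1 (edgeR adjusted p = 0.0495; range 0.0495 to 0.678). Upstream the values of Slc4a1 overlapped (68.6 and 84.5 CPM in controls, 79.6 and 55.4 CPM in knockouts; log2 fold -0.18 ± 0.51, edgeR adjusted p = 0.788), and after the gene end its log2 fold was -0.66 ± 0.36 (edgeR adjusted p = 0.247). Alas2 (Entrez 11656, chromosome X, 150547417 to 150570622, plus strand) had 15.6 and 16.6 CPM upstream in controls and 14.8 and 13.3 CPM in knockouts. Its upstream counts were the lowest of the 9 genes, between 12 and 20, so only a large difference could have been detected. Its body values were 10.2 and 12.3 CPM in controls and 13.5 and 14.6 CPM in knockouts. The log2 folds of Alas2 were -0.20 ± 0.54 upstream, 0.33 ± 0.41 over the body and 0.37 ± 0.57 downstream (edgeR adjusted p = 0.782, 0.542 and 0.702).

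The 7 calls among the 9 genes differed in how often they held under the alternatives. The downstream call of Epor held in 14 of 14, the body calls of Nfe2 and Tfrc in 14 of 15 each, and that of Klf1 in 11 of 14. The upstream call of Nfe2 and the body call of Ank1 held in 10 of 15 each, and the upstream call of Ank1 in 4 of 14. None of the 7 changed sign. The Epor window also holds Swsap1, and the alternatives do not separate these genes.

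**Figure D3:**
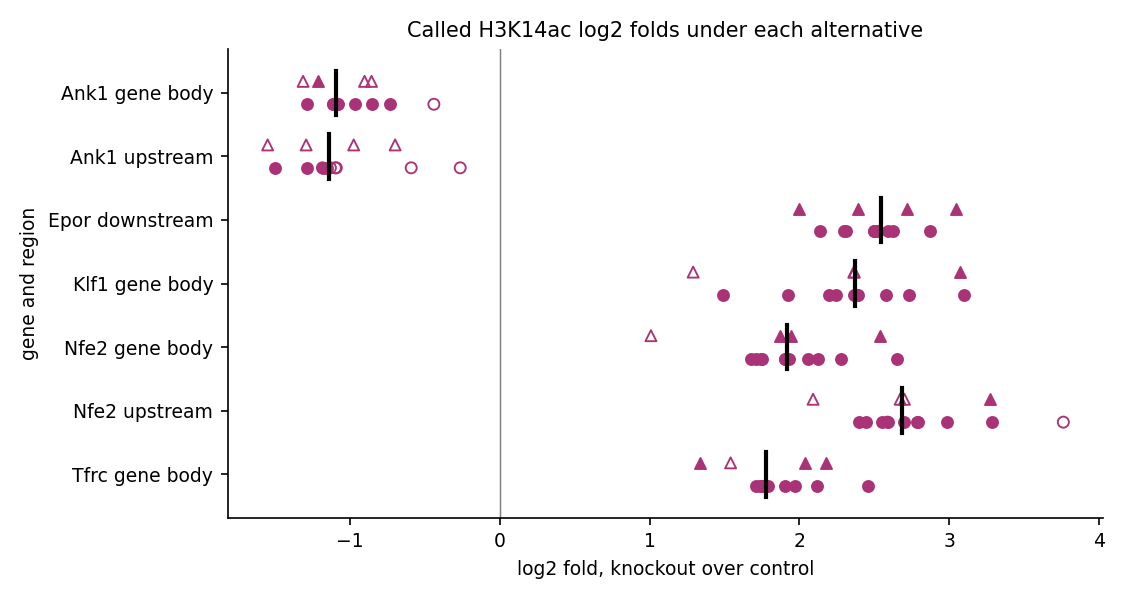
Log2 fold (knockout over control) of each of the 7 calls among the 9 genes under every alternative; black bars are the reported values, triangles leave out 1 library, circles are the other settings, filled symbols passed at an adjusted p under 0.05 and open ones did not. Epor downstream passed throughout (2.00 to 3.05), and Ank1 upstream (-1.55 to -0.26) passed in 4 of 14.

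In control LSK cells the membrane genes Ank1 and Slc4a1 had the highest mean gene body density of the 9 genes, and Epor, Tfrc and Klf1 the lowest. Ank1 ranked first by gene body density (1.84 ± 0.22, SD, n = 2), followed by Slc4a1 (1.30 ± 0.01), Nfe2 (1.09 ± 0.07) and Zfpm1 (1.04 ± 0.06). Nfe2 and Zfpm1 overlapped between libraries, and the other steps among these 4 did not. Gata1 (0.51 ± 0.20), Alas2 (0.36 ± 0.08), Epor (0.25 ± 0.12), Tfrc (0.22 ± 0.07) and Klf1 (0.22 ± 0.02) followed, and each of these overlapped the next. The last 4 had a mean below the receptor gene median of 0.385. In knockouts, Nfe2 had the highest body density (6.96 and 2.57), and among all genes the body of Klf1 moved from percentile 24.7 to 83, that of Tfrc from 25 to 61.1 and that of Ank1 from 93.8 to 71. Upstream in controls, Slc4a1 (1.33 ± 0.37) stood first, and Klf1 (0.37 ± 0.05) and Alas2 (0.28 ± 0.05) last.

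Within a gene, the size of a library cancels in the upstream-to-body ratio of counts, but the library's overall balance of upstream and body counts does not. Upstream counts made up 7.86% and 8.43% of the control libraries, and 16.5% and 11.4% of the knockout libraries. The test set each difference against 0 and did not take this shift into account. By limma on the log2 ratio (pseudocount 1), 0 of 9 genes passed at an adjusted p under 0.05, against 11.8% of the 19996 genes tested (9.89% higher, 1.90% lower). The smallest p-values among the 9 were those of Nfe2, Klf1 and Zfpm1, none of which passed after adjustment. In simulated counts this test called unchanged genes more often than its threshold. The Nfe2 log2 ratio was -0.70 and -0.58 in the control libraries against 0.47 and 0.63 in the knockout ones, so that more of its reads lay before the start site than in the body in both knockouts and fewer in both controls (difference 1.19 ± 0.36, limma adjusted p = 0.0627; range over alternatives 0.0213 to 0.324). Zfpm1 moved the same way, from -3.97 and -4.02 to -2.18 and -3.26 (difference 1.28 ± 0.44, limma adjusted p = 0.0917; range 0.0213 to 0.325). Klf1 moved the other way, from 1.24 and 1.30 to -0.36 and 0.37 (difference -1.26 ± 0.42, limma adjusted p = 0.081; range 0.0455 to 0.293). The groups did not overlap at any of these 3 genes, as at 6 of the 9 in all and at 59.3% of all genes. The median difference over all genes was 0.28 and was not subtracted from the values of single genes. Epor (-0.97 ± 0.46) and Tfrc (-0.84 ± 0.38) also had lower ratios in both knockouts, with limma adjusted p values of 0.208 and 0.183, and the remaining 4 were between -0.15 (Alas2) and 0.62 (Slc4a1). The test depended on how the variance was modelled, and with either of the other variance trends tried Nfe2 passed (limma adjusted p = 0.03 and 0.0232). With the trend on both counts Zfpm1 passed as well (0.0438), and with the replicate block Nfe2 (0.0439) and Klf1 (0.0455) passed.

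**Figure D4:**
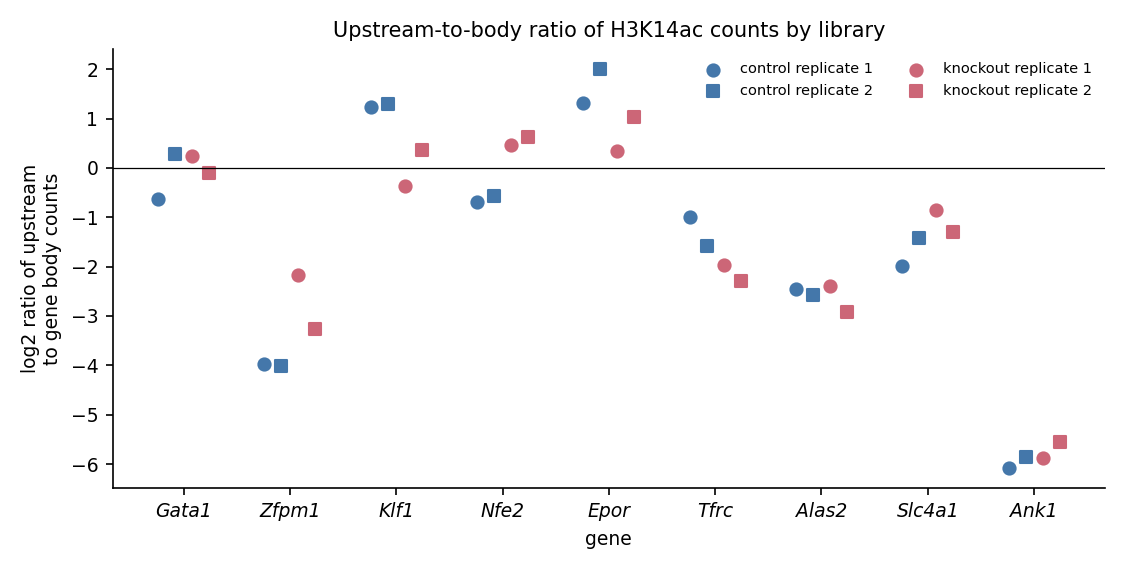
Log2 ratio of upstream to gene body counts (pseudocount 1) of the 9 genes by library; circles are replicate 1, squares replicate 2, blue controls and red knockouts. Nfe2 lies below 0 in both controls (-0.70 and -0.58) and above 0 in both knockouts (0.47 and 0.63), and Klf1 falls from 1.24 and 1.30 to -0.36 and 0.37.

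Start sites differ in their CpG content, which the choice of genes did not use. The CpG ratio, the observed over the expected number of CG dinucleotides within 500 bases of the start, was 0.6 or above (CpG-rich) for Ank1 (0.99), Zfpm1 (0.92) and Tfrc (0.90), and below it for Nfe2 (0.44), Epor (0.26), Gata1 (0.23), Slc4a1 (0.18), Alas2 (0.14) and Klf1 (0.11). Over all genes, 43.0% of CpG-rich starts were called higher upstream and 3.28% lower, against 8.56% and 23.6% of CpG-poor starts. In the gene body comparison, 36.3% of the CpG-rich class rose and 8.66% fell, against 9.77% and 22.2% of the CpG-poor class. Of the 4 genes called in these 2 regions, Tfrc went the way more common in its class, while Klf1 and Nfe2 rose with CpG-poor starts and Ank1 fell with a CpG-rich one.

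For each gene, the named genes nearest in pattern were found by the root mean square distance over 12 values (log2 CPM in 4 libraries and 3 regions) among 25274 genes. They were Raet1d and Rpusd3 for Gata1 (0.35 and 0.38 log2 units), Ubl3 and Nol10 for Zfpm1 (0.30 and 0.30), Uqcc3 and Pdzd11 for Klf1 (0.41 and 0.42), and Ivns1abp and Gm16576 for Nfe2 (0.55 and 0.66). For the receptors they were 1810019D21Rik and Srpk3 for Epor (0.41 and 0.50), and 6820431F20Rik and Saysd1 for Tfrc (0.30 and 0.31). For the others they were 4930584F24Rik and Pex11g for Alas2 (0.17 and 0.31), Eps8l3 and Arhgef5 for Slc4a1 (0.34 and 0.37), and Shank2 and Limch1 for Ank1 (0.20 and 0.28). Nfe2 had the most distant neighbours, and none of the 9 genes was among the 2 nearest of another.

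Of 16 other erythroid transcription factors and cofactors, 10 rose upstream, 0 fell and 6 did not pass. The share higher was 62.5%, against 24% of all genes, of which 14.3% fell. The same counts, 10, 0 and 6, held over gene bodies, where 23.1% of all genes rose and 15.2% fell. The CpG class of the listed genes was not taken into account. Upstream 43.0% of genes with CpG-rich and 8.56% with CpG-poor starts rose, and over bodies 36.3% and 9.77%. Downstream 2 of 15 tested rose, or 13.3%, against 10.8% of all genes. Lyl1, a basic helix-loop-helix factor of blood progenitors, rose by a log2 fold of 3.51 ± 0.65 upstream (11.3 and 20.7 CPM in controls, 258 and 110 CPM in knockouts; edgeR adjusted p = 2.91e-06). Zbtb7a, a repressor of fetal globin genes, rose by 3.14 upstream, Foxo3, a stress response factor, by 3.25, and Ldb1, an adaptor of the GATA1 complex, by 2.63. Over gene bodies, Mafg, a small Maf partner of the NF-E2 factor, rose by a log2 fold of 4.38 ± 0.43 (3.06 and 3.86 CPM in controls, 121 and 24 CPM in knockouts; edgeR adjusted p = 8.98e-13), and Klf3, a repressor of the KLF family, by 1.87. In this list, as with Nfe2 and Klf1, the knockout replicate 1 values of the named genes were above those of replicate 2.

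In erythropoietin signalling, 6 of 14 genes rose upstream and 1 fell, and over gene bodies 4 of 13 tested rose and 0 fell. The shares higher were 42.9% upstream, against 24% of all genes, and 30.8% over gene bodies, against 23.1%. The share lower upstream was 7.14%, against 14.3% of all genes, and 15.2% of all gene bodies fell. Sh2b3, an inhibitor of JAK2 signalling, rose by a log2 fold of 4 ± 0.61 upstream (edgeR adjusted p = 1.37e-08), Pim1, a kinase gene induced by STAT5, by 3.41, Cish, a feedback inhibitor, by 2.43 and Ptpn6, a phosphatase, by 2.09. The gene that fell was Epo, which encodes the hormone (-1.24, edgeR adjusted p = 0.0292), and it was named after its value was seen. Over gene bodies Pim1 (4.73), Ptpn6 (1.91), Jak2 (0.95) and Stat5b (0.71) rose. Downstream, Socs3 (3.78) and Pim1 (3.55) rose among 12 tested, or 16.7%, against 10.8% of all genes.

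In heme synthesis and transport, 5 of 13 genes tested rose upstream, 7 of 14 over gene bodies and 4 of 14 downstream, and 0 fell in any region. These shares of 38.5%, 50% and 28.6% stand beside 24%, 23.1% and 10.8% of all genes. Of all genes, 14.3%, 15.2% and 2.29% fell in these regions. The CpG class of the genes in this and the other lists was not taken into account. Upstream 43.0% of genes with CpG-rich starts and 8.56% of those with CpG-poor starts rose, and over bodies 36.3% and 9.77%. Ppox, an enzyme of the pathway, rose in all 3 regions, with log2 folds of 2.99 upstream, 2.25 over the body and 2.79 downstream. Alas1, the form of the first enzyme used outside the red cell, rose over its body by 1.67 ± 0.37 (9.38 and 12.8 CPM in controls, 48.3 and 22.4 CPM in knockouts; edgeR adjusted p = 0.000357), where the red cell form Alas2 had 0.33 ± 0.41. The difference between the 2 genes was not tested. In iron handling, 5 of 11 genes rose upstream (45.5%, against 24% of all genes), 4 of 12 over gene bodies (33.3%, against 23.1%) and 2 of 9 downstream (22.2%, against 10.8%). The ferritin genes Ftl1 (3.85 and 4.34) and Fth1 (2.86 and 3.88), Hfe (1.79 and 2.07) and Ncoa4 (1.55 and 1.65), a receptor for ferritin turnover, rose upstream and over the body, and Hfe (2.17) and Fth1 (1.71) also rose downstream. Slc40a1, the iron exporter ferroportin, fell over its body (-1.07) and downstream (-1.70).

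The membrane and globin lists did not follow the same counts. Of the red cell membrane and skeleton genes, 3 of 18 rose upstream (16.7%) and 0 fell, against 24% and 14.3% of all genes. Over gene bodies 3 of 19 rose (15.8%) and 4 fell (21.1%), against 23.1% and 15.2% of all genes. Among those that fell were Add2 (-1.01), Aqp1 (-0.91) and Tmod1 (-0.82), which encode an adducin, a water channel and a tropomodulin. Aqp1 and Tmod1 were named after their values were seen. Those that rose were Icam4 (3.68), Slc2a1 (1.18) and Cd47 (0.90). Of the globins and their chaperone, 7 of 9 genes were found. Upstream, 1 of 7 fell (Hbb-bh2, -1.57 ± 0.51, edgeR adjusted p = 0.00998) and 0 rose. The share that fell, 14.3%, was the same as that of all genes (14.3%), of which 24% rose. No globin body passed the count filter, 5 of the 7 having 0 counts in every library. Downstream, the 7 globin genes had a median log2 fold of -0.06.

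**Figure D5:**
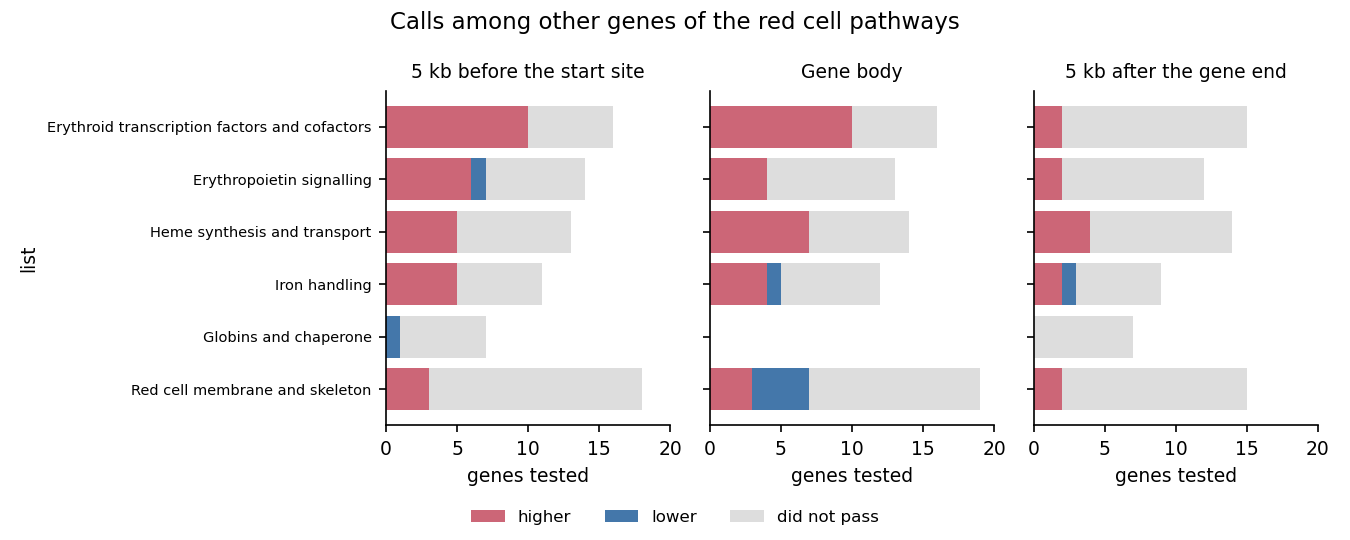
Number of genes tested in each of 6 lists of red cell pathway genes (horizontal axis) in the 3 regions, split into higher in knockouts (red), lower (blue) and not past the edgeR test (grey). Among 16 transcription factors and cofactors 10 were higher upstream and over gene bodies (24% and 23.1% of all genes). Of 19 membrane genes 4 were lower over gene bodies (15.2% of all genes). The CpG class of the listed genes was not taken into account.

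Markers of other cell types were read in the same way. The densities are not TMM scaled, and the median body density of all genes was 0.499 in controls and 0.706 in knockouts. With TMM scaling the median body log2 fold was -0.04 for LSK and 0.78 for granulocyte and monocyte markers (all genes 0.02). It was -0.24 for megakaryocyte markers and -0.52 for the 4 maturing erythroid markers tested. Summed gene body density of 9 LSK and stem cell markers was 12.1 to 13.0 in controls and 14.1 to 14.3 in knockouts, and that of 7 granulocyte and monocyte markers 11.2 to 13.9 and 17.1 to 37.7. Of the latter, 2 of 7 rose over their bodies, or 28.6%, against 23.1% of all genes. They were Mpo (log2 fold 1.79) and Elane (1.40), and the Elane values were 2.77 and 1.88 CPM in controls and 10.7 and 1.79 CPM in knockouts, so only knockout replicate 1 was above the controls. For 6 markers of maturing erythroid cells the summed upstream density was 6.03 to 6.24 in controls and 6.55 to 6.74 in knockouts. With TMM scaling their median upstream log2 fold was -0.56 (all genes -0.09). Downstream the sums overlapped, at 5.10 to 6.48 in controls and 5.06 to 5.29 in knockouts. Their summed body density was 4.88 to 5.01 in controls and 3.70 to 4.46 in knockouts, with the bodies of Hba-a1 and Hbb-bs at 0 counts. Exact zeros in every library also occurred at single regions of Socs3, Slc25a37 and Ptpn6, and how reads over repeated or overlapping genes were counted is not known, so a 0 here is not read as a level of the mark. For 7 megakaryocyte markers the summed body density was 10.1 to 11.2 in controls and 10.7 to 12.1 in knockouts. Upstream, Ppbp, a platelet chemokine gene, fell by a log2 fold of -1.31 (edgeR adjusted p = 0.0284). The part of these levels in the results for the 9 genes was not tested. The mark's level did not set the labelled cell type apart, since the median control body density was 1.18 for LSK markers, 1.15 for B cell markers and 1.19 for T cell markers.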

How the data were processed

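The authors deposited whole-number read counts per Entrez gene for 3 region classes, with the gene body length in bp, per the file headers. The submitters' processing notes name featureCounts and mm10. The aligner, annotation release, read filters and duplicate handling are not given in the sources used here. Series and library tables were checked and differed in 0 values. Symbols matched 93.0% of the 27179 genes in RefSeq (GRCm38.p6). Positions used the RefSeq record or transcript closest to the deposited length, a rule adopted after seeing the files.

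Each region class was fitted whole with edgeR 4.0.16 (R 4.3.3): filterByExpr (minimum count 10, minimum total 15), TMM, quasi-likelihood F-test, Benjamini-Hochberg, threshold 0.05, SE as the log2 fold over the square root of F. Ratios were tested with limma 3.58.1 (trend on the mean ratio). The 2 other trends were fitted first and stand as alternatives; in simulated counts this test called unchanged genes more often than its threshold. Other alternatives were 4 scalings, DESeq2 1.42.0, limma-trend, 2 filters, each library left out, replicate blocks, 2 pseudocounts and a GC correction (loess span 0.3). PCR copies are not independent molecules, and low counts give wide errors. Members and lists were chosen with earlier results of these data known. Named genes were the members, up to 4 called genes of smallest p per list and region, and the 2 nearest in pattern. A few genes that this rule would name are not reported here. Tables and plots used Python 3.11.15, pandas 2.3.3 and matplotlib 3.10.9.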

Additional observations from a re-analysis of the deposited data

How the results depend on the processing

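Of the single values under the alternatives, 390 kept their direction and side of the threshold, 25 fell short of it, 19 came to pass it and 28 changed sign, in all but 1 case without passing. The number of the 9 genes called upstream (2) was 1 with receptor scaling, the DESeq2 Wald test or no filter, 0 with the replicate block, and 0 to 1 with a library left out. It was 2 again with DESeq2 size factors, pooled totals and a mean count of at least 50, but both were then higher, with Zfpm1 called and Ank1 not (not tested under the last). Over gene bodies (4) it was 6 with the GC correction (3 higher, 3 lower), 3 with receptor scaling, where Ank1 was lost, 3 with a mean count of at least 50, where 6 genes were tested, and 1 to 4 with a library left out. Downstream (1) it was 0 with a mean count of at least 50, where 1 gene was tested, and 3 with the GC correction. The ratio count (0) was 1 with pseudocount 5, a mean count of at least 50 or the trend on the upstream count, 2 with the trend on both counts, the replicate block or the crossed block, and 0 to 2 with a library left out. Same-numbered libraries deviated in opposite directions (correlations -0.28, -0.36 and -0.22), and the labels name no shared batch, so the numbers were not taken to pair them, although the column names of same-numbered libraries carry nearby numbers. With the replicate block 3 gene bodies and 1 downstream region were called, and the crossed block, chosen after seeing the data, called 3, 4 and 1.

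Values that changed sign were mostly small. With pooled totals the upstream log2 folds were 0.35 (Gata1), 0.30 (Epor), 0.36 (Alas2) and 0.38 (Slc4a1), and with receptor scaling 0.77, 0.67, 0.74 and 0.82. With a mean count of at least 50 Slc4a1 was 0.10 upstream. The Gata1 body was 0.15 with library totals, 0.014 with pooled totals and 0.47 with receptor scaling, and the Slc4a1 body was 0.21 with receptor scaling. The GC correction gave -0.91 for the Zfpm1 body, which passed, and -0.58 downstream of it, where library totals gave -0.19 and no filter -0.018. Receptor scaling gave 0.10 for Tfrc downstream. Leaving out each library in turn gave ranges of -0.39 to 0.11 (Gata1 upstream), -0.51 to 0.012 (Epor upstream), -0.23 to 0.025 (Alas2 upstream), -0.43 to 0.20 (Slc4a1 upstream), -0.67 to 0.37 (Gata1 body), -0.16 to 0.37 (Zfpm1 body), -0.16 to 0.28 (Zfpm1 downstream), -0.21 to 0.71 (Gata1 ratio) and -0.42 to 0.11 (Alas2 ratio). The cause was not tested. A fit with 1 library in a group assumes that it varies like the other group.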
